A study of Mus musculus with 6 samples.

Results

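The AP-1 transcription factors were examined in LSK cells of mouse bone. These cells lack lineage markers, carry Sca-1 and Kit, and include blood stem cells together with early progenitors that are not yet committed. The family was taken as 10 genes chosen by name, with earlier results of these data known. They were Fos, Fosb, Fosl1 and Fosl2 of the Fos subfamily, Jun, Junb and Jund of the Jun subfamily, Batf, Atf3, and the small Maf gene Maff. All 10 were among the 38926 genes of the table and among the 11436 with a mean of at least 1 FPKM (fragments scaled by gene length and library depth) that were tested, so 0 were lost to the filter. The cells came from femur and tibia of wild-type C57BL/6 mice aged 8 to 12 weeks, injected on 3 consecutive days with DMSO, the solvent (3 libraries), or with haloperidol, an antipsychotic that blocks dopamine receptors (3 libraries). Bone was crushed and digested with collagenase in both groups, and the drug or its solvent stayed with the cells during sorting. The labels do not say if a library is 1 mouse or a pool, nor give days of sorting or sequencing. The p-values therefore reflect only how far these libraries scatter, possibly for technical reasons, and treatment cannot be told apart from any batch that coincides with it.

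AP-1 is a dimer of proteins that hold each other through a leucine zipper and touch DNA through the basic stretch beside it. Fos proteins pair with Jun proteins but not with each other, whereas Jun proteins can also pair among themselves. BATF pairs with Jun proteins and lacks a domain that activates transcription, ATF3 pairs with itself or with Jun proteins, and the small Maf protein MAFF, which also lacks such a domain, pairs with itself or with cap'n'collar factors. Many of these genes are immediate early genes, transcribed within minutes of a stimulus from growth factors, cytokines or stress, and their messages decay quickly. Taking a tissue apart with enzymes is known to induce them, so their level in sorted cells also depends on the handling.

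With haloperidol the family did not move as one. Jun, Junb, Fosl1 and Maff fell to between 0.63 and 0.75 of their DMSO mean, Atf3 and Fosb rose to 1.41 and 1.36 times theirs, and Fos, Fosl2, Jund and Batf did not pass the test. The call of Fosb ended in 6 of 18 other settings, 4 of them with 1 library left out. With all libraries, 6 of the 10 passed (60%), where 24.5% of all tested genes did, 4 of them lower (13% of all tested genes) and 2 higher (11.5%). The same 6 had libraries that did not overlap between the groups, which held for 43.1% of all tested genes (lower in 22.1% and higher in 21%). Since the members were chosen with earlier results of these data known, these shares describe the list and do not test it. The median log2 fold change was 0.08 over the 10 members and 0.00216 over all genes tested. The median lay near 0 because the members spread to both sides, from -0.63 to 0.49, while the middle 50% of all tested genes lay between -0.16 and 0.16. Adjusted p-values here are from limma on log2(FPKM + 1) with Benjamini-Hochberg adjustment over all tested genes, two-sided with a threshold of 0.05, and n = 3 in each group. In RNA from whole sorted populations, fewer cells that hold a transcript and less of it in each cell cannot be told apart.

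**Figure D1:**
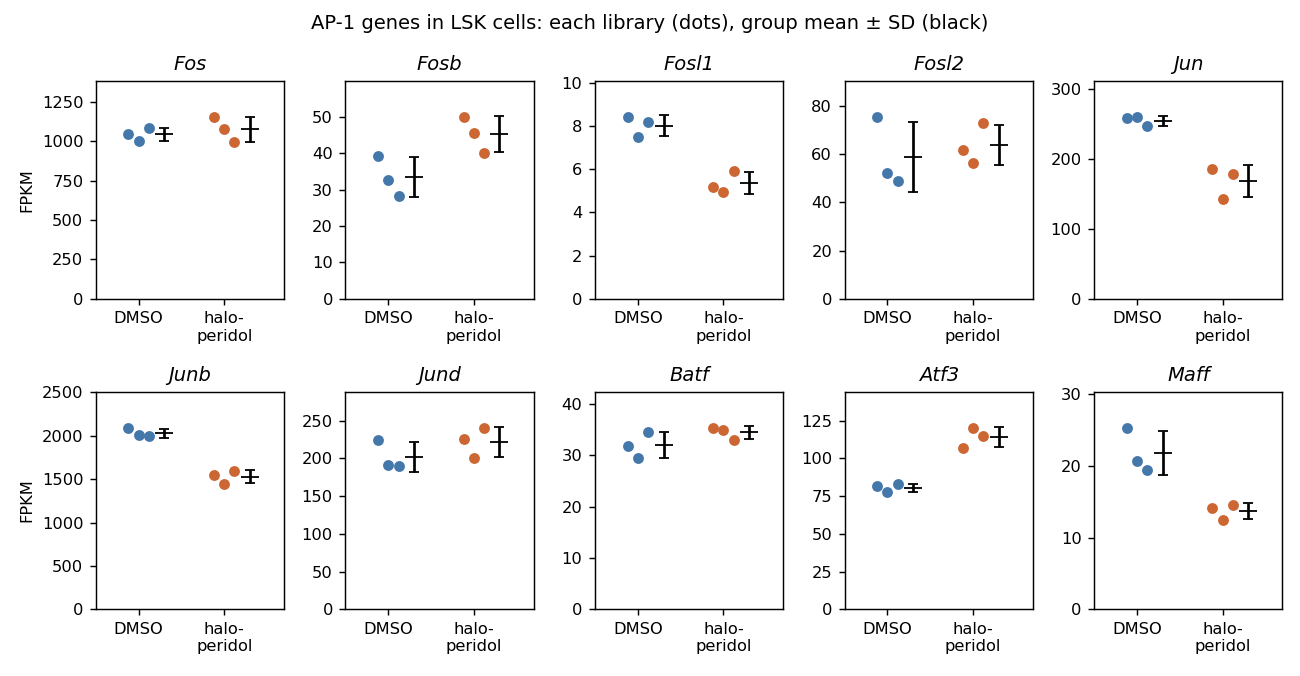
FPKM (vertical axes, from 0, a scale of its own for each gene) of the 10 AP-1 genes in each of the 3 DMSO (blue) and 3 haloperidol (orange) libraries; dots are libraries and the black bars the mean ± SD. The groups lie apart for Fosb, Fosl1, Jun, Junb, Atf3 and Maff, and overlap for Fos, Fosl2, Jund and Batf.

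The promoter sequences of 2 members that fell (Jun, Junb), of the member with the clearest rise (Atf3) and of the abundant member that did not pass (Fos) are shown so that the start regions of members with different responses can be read side by side. Each runs from 250 bases before the annotated start to 50 after it, 5′ to 3′ on the gene's strand, and comes from RefSeq on build GRCm38.p6 (mm10). This RefSeq start can differ from the GENCODE gene positions given below. For Atf3 the window lies inside the GENCODE gene (191170296 to 191218039). Capitals mark matches to any motif searched, on either strand.
Fos (chr12:85473640-85473939, plus strand): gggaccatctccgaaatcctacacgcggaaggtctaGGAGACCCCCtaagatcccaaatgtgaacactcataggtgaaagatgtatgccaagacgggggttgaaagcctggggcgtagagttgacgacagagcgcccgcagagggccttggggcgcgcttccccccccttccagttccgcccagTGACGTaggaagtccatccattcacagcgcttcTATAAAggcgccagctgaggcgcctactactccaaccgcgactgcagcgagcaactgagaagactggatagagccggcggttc
Jun (chr4:95052173-95052472, minus strand): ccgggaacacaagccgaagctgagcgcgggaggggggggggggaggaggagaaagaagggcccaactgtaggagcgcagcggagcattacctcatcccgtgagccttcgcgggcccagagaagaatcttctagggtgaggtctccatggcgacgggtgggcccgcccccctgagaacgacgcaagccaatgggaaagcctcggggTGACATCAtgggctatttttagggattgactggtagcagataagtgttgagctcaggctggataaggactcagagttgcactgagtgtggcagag
Junb (chr8:84978699-84978998, minus strand): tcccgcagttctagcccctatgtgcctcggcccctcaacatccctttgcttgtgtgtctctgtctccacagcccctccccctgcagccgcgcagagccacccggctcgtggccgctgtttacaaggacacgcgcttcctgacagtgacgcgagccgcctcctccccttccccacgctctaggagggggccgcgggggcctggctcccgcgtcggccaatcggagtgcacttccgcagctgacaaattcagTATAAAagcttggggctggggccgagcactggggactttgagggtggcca
Atf3 (chr1:191183284-191183583, minus strand): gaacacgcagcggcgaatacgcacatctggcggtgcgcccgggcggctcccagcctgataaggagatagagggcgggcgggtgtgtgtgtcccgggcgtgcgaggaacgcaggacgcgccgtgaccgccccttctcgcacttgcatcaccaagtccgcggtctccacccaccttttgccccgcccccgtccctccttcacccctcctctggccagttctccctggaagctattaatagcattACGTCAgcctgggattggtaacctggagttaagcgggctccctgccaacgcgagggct

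The motifs were TGACTCA, the AP-1 site; TGACGTCA, the cyclic AMP response element, and its core TGACGT, which lies within it; TGACATCA, a variant of both; TATAAA; TTCNNNGAA, a STAT site; and, by name, the CArG box of serum response factor and the NF-kB motif. Fos carried TGACGT 66 bases before the start and TATAAA 33 bases before it, together with an NF-kB motif 214 bases before it. In Jun the single match was TGACATCA, 45 bases before the start. Junb had only TATAAA, which began at the annotated start itself, and Atf3 only the reverse complement of TGACGT, 8 bases before the start. Windows were found for 9 of the 10 members, all but Fosl1, 11 windows in all since Maff has 3. The Jund window (70697489 to 70697788) ended before the GENCODE start of that gene (70698949). Shares are of windows, first among all 32817 windows of this length and then among the 10265 of tested genes. TGACTCA (5.2% and 3.52%) and the CArG box (1.63% and 1.2%) were in 0 of the 11. TGACGT was in 4 windows (Fos, Batf, Atf3 and Maff; 7.51% and 12.3%), and the NF-kB motif also in 4 (Fos, Fosb, Fosl2 and Maff; 8.46% and 10.2%). TGACATCA was in 2 (Jun and Maff; 3.62% and 1.7%) and TATAAA in 2 (Fos and Junb; 13.6% and 6.86%). TGACGTCA (1.79% and 3.14%) and TTCNNNGAA (8.29% and 6.99%) were in 1 each, of Maff. No motif of this search was shared by Jun and Junb. TGACGT was in Atf3, which rose, in Maff, which fell, and in Fos and Batf, which did not pass. A match describes letters in this window and is no evidence of binding. Nor does a missing match, such as that of the CArG box, mean that a promoter lacks the motif. Bases further upstream than the window were not searched.

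Junb encodes a Jun protein that pairs with Fos proteins and, in myeloid progenitors, restrains proliferation. It lies on chromosome 8 (84974484 to 84978718, minus strand, GENCODE M21 on mm10) and was the most abundant member. It ranked 9 of 11436 genes by mean level in DMSO and 11 in haloperidol. Its level was 2090, 2007 and 1994 FPKM in the DMSO libraries and 1547, 1444 and 1589 FPKM in the haloperidol libraries. Every haloperidol library lay below every DMSO library, and the gap of 406 FPKM between the groups was several times the SD within them. The mean was 2030 ± 52.2 FPKM in DMSO and 1527 ± 74.4 FPKM in haloperidol (SD, n = 3 each). On the log2 scale Junb thus changed by -0.41 (SE 0.05), with adjusted p = 0.00122 by limma. Between 23623 and 34296 reads lay behind each value. The antisense neighbour Prdx2 overlaps only a longer annotated form of Junb, not the RefSeq gene whose length the FPKM use, and was at 129 ± 0.566 and 115 ± 1.58 FPKM.

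Jun encodes c-Jun, the founding member of the family and the target of the JNK kinases. Its gene, on chromosome 4 (95049034 to 95052222, minus strand), was at 259, 260 and 247 FPKM in DMSO and at 186, 143 and 178 FPKM in haloperidol. Haloperidol replicate 2 was the lowest, and the highest haloperidol library was still 60.7 FPKM below the lowest DMSO library. With means of 255 ± 7.07 and 169 ± 23.1 FPKM, Jun changed by -0.60 on the log2 scale (SE 0.09), at adjusted p = 0.00258. Libraries made this way keep no strand, so reads of the antisense gene Junos, which overlaps Jun, cannot be told apart from those of Jun.

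Jund, the third Jun gene, encodes a protein whose message is commonly more constant than those of Jun and Junb. It was at 225, 191 and 191 FPKM in DMSO and 226, 201 and 240 FPKM in haloperidol. The groups overlapped, and the log2 fold change of 0.14 (95% interval -0.05 to 0.33) did not pass (adjusted p = 0.27). The 3 Jun genes were therefore set against each other within each library. The ratio of Jun to Jund was 1.15 to 1.36 in the DMSO libraries and 0.711 to 0.825 in the haloperidol libraries. By these FPKM, Jun was thus the more abundant of this pair in each DMSO library and the less abundant in each haloperidol library. That order depends on the length used for Jund, 2878 bases in the FPKM, more than its GENCODE span (70698949 to 70700616). The change of the ratio between the groups does not depend on this length. The ratio of Junb to Jund went from 10.1 ± 0.679 to 6.88 ± 0.289, and that of Jun to Junb from 0.126 ± 0.0033 to 0.111 ± 0.0108. For all 3 ratios the groups did not overlap, and the exact permutation test gave p = 0.1, the smallest that 3 against 3 libraries allow (0.125 adjusted over the 10 pairs compared within a subfamily or, for Batf and Atf3, with each other).

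Fos, the partner of the Jun proteins and the second most abundant member, lies on chromosome 12 (85473890 to 85477273). Its level was 1044, 1004 and 1085 FPKM in DMSO and 1153, 1080 and 998 FPKM in haloperidol, with 20515 to 23323 reads in each library. The haloperidol libraries spread over the whole DMSO range and on both sides of it. The log2 fold change was 0.04 (95% interval -0.10 to 0.18, adjusted p = 0.659), and its sign turned with quantile normalization (-0.0069) and without haloperidol replicate 1 (-0.008). The interval of Fos lay above that of Junb (-0.53 to -0.29), another immediate early gene, though the difference between these 2 genes was not tested.

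Fosb encodes a Fos protein with a long and a short form that the FPKM do not separate. Its gene is on chromosome 7 (19302696 to 19310051, minus strand). It was at 39.2, 32.7 and 28.2 FPKM in DMSO and 49.8, 45.6 and 40.2 FPKM in haloperidol. The groups were separate by 1.001 FPKM only, less than the SD of either group (5.51 in DMSO and 4.85 in haloperidol). The log2 fold change was 0.44 (SE 0.12, adjusted p = 0.0294). Of the calls in this family, this one did not hold under all settings: it ended without DMSO replicate 2 (adjusted p = 0.0813), without DMSO replicate 3 (0.0815), without haloperidol replicate 1 (0.0954) and without haloperidol replicate 2 (0.0709), with no filter on low values (0.0973) and with no trend in the prior variance (0.0594).

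Fosl1 encodes FRA-1, which lacks the strong activation domain of c-Fos. It was the least abundant member, with 75 to 128 reads a library. On chromosome 19 (5447547 to 5455946), it was at 8.41, 7.49 and 8.18 FPKM in DMSO and 5.17, 4.94 and 5.92 FPKM in haloperidol. All haloperidol libraries lay below all DMSO libraries, by 1.57 FPKM or more. Its log2 fold change was -0.51 (SE 0.09, adjusted p = 0.00446). The antisense gene Ccdc85b overlaps its exons and was more abundant, at 26.6 ± 3.26 and 29.2 ± 1.05 FPKM, so the level of Fosl1 is uncertain. Fosl2, which encodes the related FRA-2, was at 75.3, 52.1 and 48.9 FPKM in DMSO and 61.9, 56.5 and 72.9 FPKM in haloperidol. DMSO replicate 1 stood above its group, the groups overlapped, and the log2 fold change of 0.13 (95% interval -0.22 to 0.49) did not pass (adjusted p = 0.568). Within the Fos subfamily, the ratio of Fosb to Fosl1 was 3.45 to 4.66 in DMSO and 6.79 to 9.63 in haloperidol (exact permutation p = 0.1, adjusted 0.125), while that of Fos to Fosl2 overlapped between the groups (exact permutation p = 0.5).

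Atf3 encodes a stress-induced factor that as a homodimer represses transcription. It lies on chromosome 1 (191170296 to 191218039, minus strand) and was at 81.7, 77.7 and 82.8 FPKM in DMSO and 107, 120 and 115 FPKM in haloperidol. The lowest haloperidol library exceeded the highest DMSO library by 24.0 FPKM. With means of 80.7 ± 2.69 and 114 ± 6.74 FPKM, Atf3 changed by 0.49 on the log2 scale (SE 0.06). Its adjusted p of 0.000725 was the smallest of the 10 members. Batf, whose protein cooperates with IRF4 and IRF8 in lymphoid and dendritic cells, was at 31.8, 29.4 and 34.5 FPKM in DMSO and 35.3, 34.98 and 33.0 FPKM in haloperidol. These groups overlapped (log2 fold change 0.11, 95% interval -0.04 to 0.26, adjusted p = 0.273).

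Maff, the small Maf gene, lies on chromosome 15 (79346621 to 79359076) and was among the members that fell. It was at 25.3, 20.8 and 19.5 FPKM in DMSO and 14.2, 12.5 and 14.6 FPKM in haloperidol, on 236 to 478 reads a library. No library of either group reached the range of the other. The log2 fold change was -0.63 (SE 0.10, adjusted p = 0.00336), and 2.93% of all tested genes had a lower one.

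**Figure D2:**
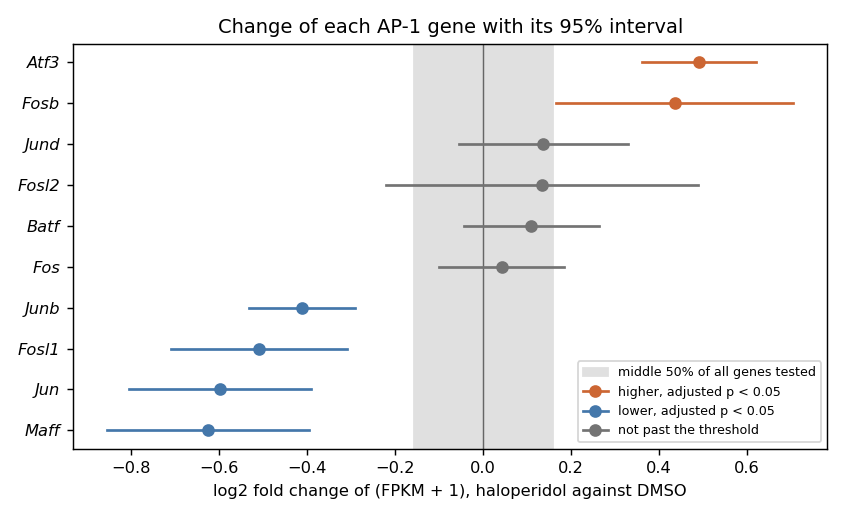
Log2 fold change of (FPKM + 1) between haloperidol and DMSO (horizontal axis) for each AP-1 gene, with its 95% interval from limma; the grey band holds the middle 50% of all genes tested. Maff, Jun, Fosl1 and Junb lie to the left of the band, Fosb and Atf3 to its right, and the intervals of the other 4 members include 0.

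Since FPKM are scaled by length, the levels of the members can be added up. The 10 members summed to 3682 to 3879 FPKM in the DMSO libraries and to 3143 to 3385 FPKM in the haloperidol libraries, without overlap. Most of that difference lay in the Jun subfamily, which summed to 2488 ± 75.3 FPKM in DMSO and 1918 ± 115 FPKM in haloperidol. The Fos subfamily summed to 1144 ± 41.6 and 1191 ± 76.6 FPKM, with overlapping groups. Junb made up 53.3% to 54.5% of the sum in DMSO and 45.7% to 48.3% in haloperidol, Fos 26.9% to 29.0% and 30.4% to 34.4%, and Jun 6.61% to 7.06% and 4.55% to 5.51%. The transcripts of the family were thus poorer in Jun and Junb, and richer in Fos by share though not by level, in every haloperidol library. These sums describe transcripts, not protein dimers, and have no test.

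**Figure D3:**
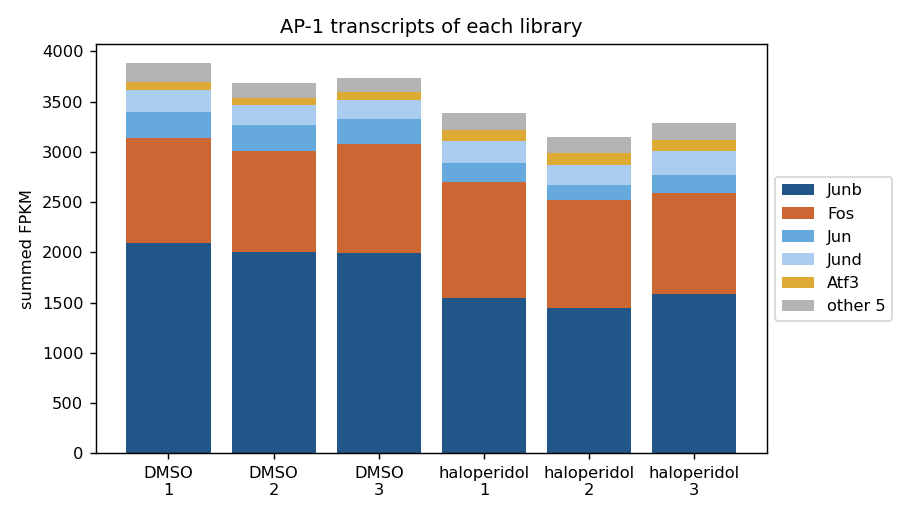
Stacked FPKM (vertical axis) of the AP-1 genes in each of the 6 libraries; the other 5 are Fosb, Fosl1, Fosl2, Batf and Maff. The dark blue Junb part is shorter in the 3 haloperidol bars, while the orange Fos part is of like height in all 6.

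Ordered by mean level, the members ran Junb, Fos, Jun, Jund, Atf3, Fosl2, Fosb, Batf, Maff and Fosl1 in DMSO. Neighbours in that order were separate in all 3 DMSO libraries except Fosb and Batf, whose ranges overlapped. In haloperidol Jund stood above Jun and the rest of the order was the same. The place of Jund against Jun depends on the length used for Jund. Among replicates, DMSO replicate 1 was the highest of its group for 6 members (Fosb, Fosl1, Fosl2, Junb, Jund and Maff). Haloperidol replicate 2 was the lowest of its group for 6, and haloperidol replicate 3 the highest for 5 (Fosl1, Fosl2, Junb, Jund and Maff). Fosl1, Fosl2, Junb, Jund and Maff were thus each highest in DMSO replicate 1 and in haloperidol replicate 3 of their groups. Atf3 was at its highest in haloperidol replicate 2. The genes with the pattern most like that of Jun over the 6 libraries, by Pearson's r of log2(FPKM + 1) among 7223 genes, were Rab3il1, Stard3, F2rl3, Bex4 and Tuba4a, with r from 0.991 to 0.998. Those most like Fos were Mapre2, Zfp869, Champ1, Tubb4b and Rdx, with r from 0.939 to 0.985. Both sets are the top of a long ranking over 6 libraries that share the group difference, and carry no test.

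Genes that work with AP-1 or are read by it were followed in 7 lists from textbook knowledge. Of 12 measured genes of other AP-1-like, ATF and CREB factors, 1 rose, 2 fell (1 with any single library but haloperidol replicate 3 left out) and 9 did not pass. Jdp2, whose protein binds Jun and represses AP-1 sites, rose from 48.3 ± 3.17 to 96.9 ± 9.32 FPKM (log2 fold change 0.99, SE 0.08, adjusted p = 0.000138). Creb3 fell from 15.5 ± 0.567 to 8.05 ± 0.466 FPKM and Xbp1 from 70.7 ± 2.05 to 60.9 ± 4.18 FPKM. Of 7 measured other Maf genes and their Bach and cap'n'collar partners, 0 rose and 1 fell (0 to 3 fell under the other settings). That gene was Nfe2l2, which encodes NRF2, from 88.0 ± 4.92 to 69.6 ± 7.08 FPKM. Unlike Maff, the other small Maf genes Mafg and Mafk, singled out after their values were seen, did not pass (adjusted p = 0.502 and 0.297), though the difference from Maff was not tested.

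Upstream, of 32 measured genes of the MAP kinase cascades and of factors of the Fos promoter, 3 rose, 6 fell and 23 did not pass, so 28.1% were called where 24.5% of all genes were. Elk3, a ternary complex factor that binds the Fos promoter with serum response factor, fell from 19.1 ± 0.21 to 12.4 ± 0.309 FPKM (log2 fold change -0.58, adjusted p = 0.000339). Map3k8, a kinase above ERK in inflammatory signalling, fell from 13.4 ± 1.2 to 8.40 ± 0.267 FPKM, and the ribosomal S6 kinase gene Rps6ka1 from 83.9 ± 3.46 to 66.9 ± 4.50 FPKM. Mapk13, a p38 kinase gene, rose from 1.22 ± 0.249 to 2.50 ± 0.185 FPKM. Of 12 genes of proteins that bind AU-rich elements, the sequences through which many immediate early messages are degraded, 3 rose (1 without haloperidol replicate 1) and 2 fell (1 with any single library left out). Zfp36l2 rose from 154 ± 13.0 to 236 ± 14.2 FPKM, Khsrp from 19.9 ± 2.02 to 25.9 ± 1.68 FPKM and Hnrnpd from 35.1 ± 1.77 to 42.2 ± 2.85 FPKM, whereas Zfp36l1 fell from 16.9 ± 3.01 to 11.8 ± 0.752 FPKM.

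Downstream, 15 of 25 textbook AP-1 target genes were measured, and 2 rose (1 without DMSO replicate 2 or 3 or haloperidol replicate 1 or 3), 7 fell and 6 did not pass (60% called, median log2 fold change -0.23). Ptgs2, which encodes cyclooxygenase 2, fell from 174 ± 11.5 to 65.7 ± 3.17 FPKM (log2 fold change -1.39, SE 0.06, adjusted p = 1.27e-05). The growth factor genes Hbegf and Vegfa fell from 9.67 ± 1.17 to 3.57 ± 0.731 and from 59.1 ± 5.54 to 31.8 ± 3.78 FPKM, and the metallothionein gene Mt2 went up, from 4.73 ± 1.31 to 15.2 ± 3.15 FPKM. Of 12 measured genes of factors that bind DNA with AP-1, 0 rose and 2 fell. Irf8, a partner of BATF, fell from 13.0 ± 0.255 to 6.89 ± 0.907 FPKM, and Nfatc1 from 18.1 ± 0.531 to 14.1 ± 0.877 FPKM. Of 31 measured other genes known to respond to tissue dissociation, 3 rose, 15 fell and 13 did not pass (58.1% called, median -0.23). Among them Gadd45b fell from 318 ± 23.3 to 129 ± 10.5 FPKM, Ppp1r15a from 219 ± 6.33 to 130 ± 1.54 FPKM and Nfkbiz by 1.08 on the log2 scale (adjusted p = 4.18e-05), and Klf6 rose from 29.3 ± 1.68 to 48.3 ± 3.14 FPKM. Several of these lists share genes with each other or with pathways other than AP-1, and their calls are read only beside the 24.5% of all genes. The lists too were chosen with earlier results of these data known, so their shares are no test.

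**Figure D4:**
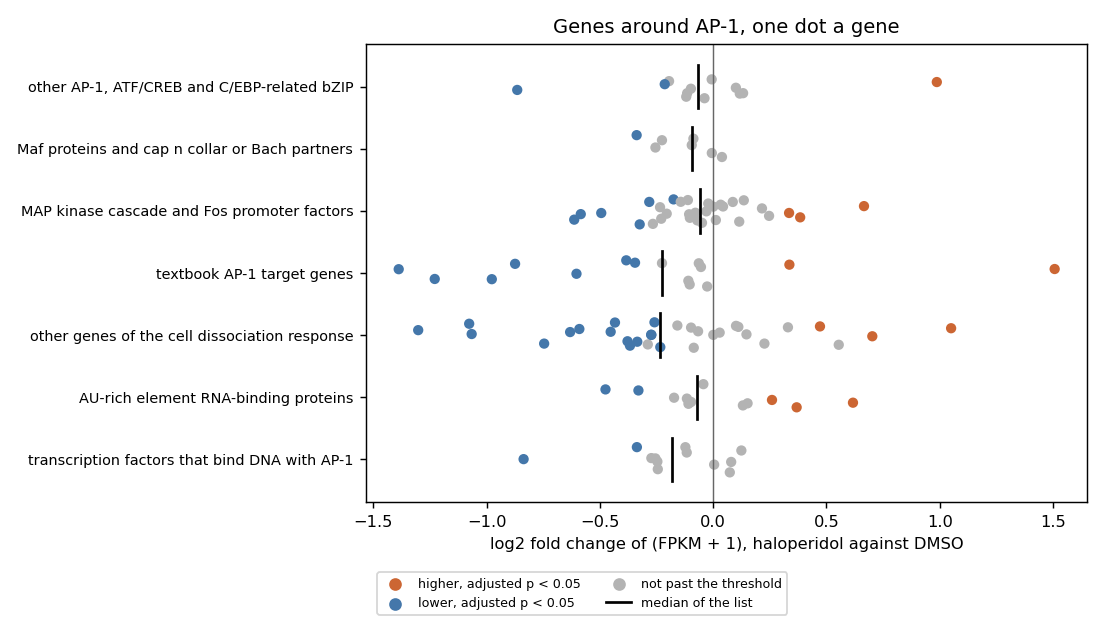
Log2 fold change of (FPKM + 1) between haloperidol and DMSO (horizontal axis) for the measured genes of 7 lists, one dot a gene, coloured by the limma call, with the median of each list as a black bar. The medians of the target genes and of the dissociation response lie at -0.23, and both lists hold called genes on either side of 0.

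Markers of other cells were read in the same libraries, since mature cells also express AP-1 genes. Kit (69.9 to 96.3 FPKM) and Ly6a, which encodes Sca-1 (125 to 147 FPKM), were present in all 6 libraries and did not pass. Of the B cell markers, Ms4a1, Pax5 and Blk were below 1 FPKM in every library, while Cd79b was at 31.2 to 33.4 FPKM in DMSO and 21.4 to 23.7 FPKM in haloperidol. Mast cell and basophil markers (4 genes) summed to 37.7 to 46.2 FPKM in DMSO and 72.1 to 88.4 FPKM in haloperidol. Of 8 genes of stem cells and multipotent progenitors, 5 fell and 1 rose (75% called, where 24.5% of all tested genes were). Their sum went from 981 to 1018 FPKM in DMSO to 858 to 874 FPKM in haloperidol. Erythroid markers summed to 3138 to 4175 FPKM in DMSO and 3617 to 4891 FPKM in haloperidol. For neutrophil markers the sums were 156 to 262 FPKM in DMSO and 163 to 284 FPKM in haloperidol. Those of monocyte markers were 88.6 to 104 FPKM in DMSO and 96.7 to 120 FPKM in haloperidol. The sums of monocyte, neutrophil and erythroid markers thus overlapped between the groups. Of their 15 measured genes 0 passed, where 24.5% of all tested genes did. T and NK cell markers summed to at most 2.05 FPKM in any library. Endothelial markers summed to 29.9 to 32.7 FPKM in DMSO and 24.9 to 25.7 FPKM in haloperidol, with the defining marker Cdh5 at or near 0, and stromal and bone markers to 28.1 to 32.6 and 33.0 to 35.3 FPKM. The T cell marker Cd8a and the bone marker Bglap were at 0 in all libraries. The part of these cell types in the AP-1 differences was not tested.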

How the data were processed

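RNA of sorted LSK cells was sequenced as 3 DMSO and 3 haloperidol libraries, grouped by their titles. Per the labels' protocols, SMART-Seq cDNA went into Nextera libraries, so that strand is lost. Per the submitters' processing notes, the tools were TopHat2 (version 2.1.1), bcl2fastq (version 2.19.1.403), DESeq2 (version 1.18.1) and HTSeq (version 0.6.1), and the build was mm10. How HTSeq assigned ambiguous reads is not stated there. The authors deposited FPKM values, 1 column a library.

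Steps between low FPKM values gave what 1 read adds to each gene, and whole reads came out for 100.0% of genes above 0 (within 0.001 reads). They gave 8523556 to 8969053 reads a library, so that 0 reads allow up to 0.334 to 0.352 RPM (3 counts, counting error only), and a scale between libraries equal to median-of-ratios size factors. Genes with a mean of at least 1 FPKM entered limma (version 3.58.1, R 4.3.3) as log2(FPKM + 1) (trend in the prior variance, no covariate, two-sided, Benjamini-Hochberg over 11436 genes, threshold 0.05). Fold changes on this scale understate those of low genes. Of all tested genes, 2807 passed, 1320 higher and 1487 lower.

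All 10 members are named, and of each related list up to 4 genes past the threshold with the smallest p. For Fos and Jun the 5 genes of highest Pearson r were named among genes of mean at least 5 FPKM, leaving out predicted genes, clone names and pseudogenes. The members and lists were chosen with earlier results of these data known. Other pseudocounts, filters, scalings, variance models, a replicate block and leaving out each library were tried, and limma's voom on the recovered reads was added after seeing the data. Motif positions come from RefSeq promoters and gene positions from GENCODE M21.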

Additional observations from a re-analysis of the deposited data

How the results depend on the processing

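Under 18 other settings (17 chosen at the outset and voom on the recovered reads, chosen after seeing the data), 8 of the 10 members kept their direction and their side of the threshold throughout; the exceptions were Fos and Fosb. The log2 fold change ranged from -0.67 to -0.48 for Jun, -0.44 to -0.37 for Junb, -0.59 to -0.46 for Fosl1, -0.70 to -0.52 for Maff and 0.45 to 0.54 for Atf3, with adjusted p of at most 0.0248 for these 5. Fos turned sign, without a call, to -0.0069 with quantile normalization and ranged from -0.00802 (without haloperidol replicate 1) to 0.0961 when 1 library was left out, and the cause was not tested. Members past the threshold stayed at 4 lower in every setting, and those higher went from 2 to 1 (Fosb lost) with no filter on low values and with no trend in the prior variance, and lay between 1 and 2 when 1 library was left out. Over all genes, 848 were higher with no filter, where 20633 genes were tested. With 1 library left out, 1814 to 2160 genes passed, 817 to 985 of them higher and 997 to 1228 lower. Without DMSO replicate 2 the count was 1814, with 817 higher, and without haloperidol replicate 1 864 were higher. Deviations of same-numbered libraries from their group means correlated at 0.00946, 0.055 and 0.0195, and those of differently numbered libraries between -0.0926 and 0.0618. The labels do not say if replicates were handled in pairs, and these values do not settle it. With the replicate block 2552 genes passed (2807 without it) and the 6 called members were called again. Of the related lists, the fallen bZIP genes went from 2 to 1 with no filter, with no trend and without any single library other than haloperidol replicate 3. The fallen AU-rich element binders went from 2 to 1 with no trend and without any single library, and to 0 with no filter. The raised target genes went from 2 to 1 with no filter, no trend or the block, and without DMSO replicate 2 or 3 or haloperidol replicate 1 or 3. Raised AU-rich element binders went from 3 to 1 without haloperidol replicate 1, and raised kinase cascade genes from 3 to 1 with no filter and with a minimum of 5 FPKM. The Maf list had 0 fallen genes with no filter and without DMSO replicate 3 or haloperidol replicate 1. With voom 5 dissociation genes rose and 5 partners fell. Reads were fewest for Fosl1 (75 to 128 a library), Batf (244 to 297) and Maff (236 to 478), so counting error weighs most there.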
